A study of Mus musculus with 18 samples.

Results

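The members described here were 10 genes of the interleukin-6 (IL-6) cytokine family and its signalling route in cancer cells grown with and without fibroblasts. The genes were the cytokines Il6, Lif and Il11, the receptor genes Il6st, Lifr, Osmr and Il11ra1, the kinase gene Jak1, the transcription factor gene Stat3 and the feedback inhibitor gene Socs3. They were chosen by name for their roles, and all 10 were found in the count table of each cell line, among 24455 genes for 168FARN and 24532 for LLC1. RNA was sequenced from mouse cancer cells cultured as hanging drop spheroids, with 3 groups per line and 3 libraries per group, 18 libraries in all. 168FARN is a breast cancer line, and LLC1 is a lung cancer line. In the first group of each line the cancer cells grew alone. In the second group (WT) they grew with 3 control fibroblasts per cancer cell, which carried a non-targeting guide RNA (sgNS), and in the third group (sgPrrx1) with the same number of fibroblasts whose Prrx1 gene had been deleted by CRISPR/Cas9. The fibroblasts mixed with 168FARN were MMTV-CAF, cancer-associated fibroblasts from tumours of MMTV-PyMT breast cancer mice, and those mixed with LLC1 were wound healing fibroblasts taken from dorsal skin wounds on day 10. Cancer cells of every group were tagged with GFP and, by the study's methods, were sorted away from the fibroblasts before RNA was extracted. Prrx1 was deleted in the fibroblasts only, so its level in the sorted cancer cells does not check the labels. Line and kind of fibroblast changed together and cannot be told apart.

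IL-6 family cytokines bind a receptor of their own and then recruit the shared signalling chain gp130, which Il6st encodes. Gp130 carries JAK kinases, mainly JAK1, and these phosphorylate STAT3, which moves to the nucleus and turns on target genes. Socs3 is among the fastest of these targets, and its protein binds gp130 and JAK and shuts the signal down, so its RNA is commonly read as a trace of recent gp130 signalling. In tumours, fibroblasts and cancer cells can both make Il6, Lif and Il11.

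Promoter sequence is shown for the 3 cytokine genes and Socs3, the members that held a match to one of the motifs searched. RefSeq windows of build GRCm38.p6 reaching 250 bases upstream of a start were available for all 10 genes, 13 windows in all, and were searched on both strands for TGANTCA, the core recognised by AP-1 factors, and for TTCNNNGAA, the palindrome recognised by STAT factors. TGANTCA was found in a window of each of the 3 cytokine genes and of no other member, against 6.75% of all 32851 windows of this length. TTCNNNGAA was found in the window of Socs3 and of no other member, against 7.02% of all windows. A match is a description of the letters, not evidence of binding, and none of these cells was assayed for either factor. The full windows of Il6 (chr5:30012864-30013113, plus strand) and Lif (chr11:4257318-4257567, plus strand) follow, with the match in capitals. For Il11 (chr7:4778221-4778250, minus strand) and Socs3 (chr11:117969501-117969530, minus strand) only 30 bases around the match are given, because their windows lie inside the annotated span of the gene.
Il6: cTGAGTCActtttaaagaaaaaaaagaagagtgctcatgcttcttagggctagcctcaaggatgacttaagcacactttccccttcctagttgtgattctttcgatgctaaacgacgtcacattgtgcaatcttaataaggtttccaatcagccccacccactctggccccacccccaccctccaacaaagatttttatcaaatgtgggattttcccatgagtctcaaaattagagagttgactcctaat
Lif: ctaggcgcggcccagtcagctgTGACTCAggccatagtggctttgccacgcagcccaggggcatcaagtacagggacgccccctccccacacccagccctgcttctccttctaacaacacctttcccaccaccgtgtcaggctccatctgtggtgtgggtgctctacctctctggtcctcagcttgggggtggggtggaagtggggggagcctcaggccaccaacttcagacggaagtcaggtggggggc
Il11: aggagggagggTGAGTCAggatgtgtcagg
Socs3: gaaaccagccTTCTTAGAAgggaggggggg

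Libraries held 48315037 to 68933002 counts in 168FARN and 66129117 to 103997557 in LLC1. LLC1 sgPrrx1 replicate 3 stood apart: its mean correlation with the other libraries of its group was 0.9531, against 0.975 or more in the other 17 libraries, so counts of calls within LLC1, and each member's LLC1 value whose call it changed, are also given without it. Markers of fibroblasts were read in the sorted cells, as in the plot of fibroblast markers. In 168FARN, Col1a1, a collagen chain made in quantity by fibroblasts, had a mean of 3.74 CPM (counts per 1000000 counts of the TMM-scaled library) in cells alone, 161 in WT and 10.4 in sgPrrx1 coculture, and Postn, a matrix protein of activated fibroblasts, was at 0 in cells alone and at 22.1 and 0.0223 CPM in the cocultures. Of 14 listed fibroblast markers 12 could be tested in 168FARN, of which 9 rose and 1 fell in WT coculture against cells alone, 6 rose and 2 fell in sgPrrx1 coculture against cells alone, and 2 rose and 10 fell in sgPrrx1 against WT coculture. Of all genes tested in 168FARN, 33.4% rose and 30.7% fell, 25.7% and 24.1%, and 26.9% and 33.1%, in the same comparisons. In LLC1, Col1a1 had means of 0.375, 8.60 and 0.681 CPM in the same order, and of 10 markers tested 4 rose and 2 fell in WT coculture, 2 rose and 1 fell in sgPrrx1 coculture, and 0 rose and 3 fell between the cocultures. Of all genes tested in LLC1, 4.25% rose and 4.58% fell, 2.01% and 2.31%, and 0% and 0.0544%. Without sgPrrx1 replicate 3 the LLC1 marker counts were 5 and 3, 3 and 1, and 1 and 3, against 22% and 22.2%, 12.5% and 14.2%, and 2.94% and 2.75% of all genes. With the replicate number as a block 1 marker rose and 1 fell in sgPrrx1 coculture against cells alone, against 1.44% and 1.52% of all genes. The summed level of the list did not follow these genes, because cells alone already had high Pdpn and S100a4 in 168FARN and high Col3a1 and S100a4 in LLC1. It spanned 2182 to 2292, 2293 to 2299 and 2480 to 2515 CPM in 168FARN and 2197 to 2294, 1965 to 2091 and 2266 to 2655 CPM in LLC1, in cells alone, WT and sgPrrx1 coculture. Of 6 epithelial markers Krt8 was high in 168FARN, at 331, 372 and 419 CPM in cells alone, WT and sgPrrx1 coculture. Krt19 had 224, 218 and 143 counts in the 168FARN WT libraries and 0 in all others of that line, and Krt18 had means of 0.0125, 0.377 and 0.0157 CPM in LLC1, where the sum of all 6 was at most 0.702 CPM in any library. Epcam and Cdh1 had at most 8 counts in any library, so both were nearly absent from either line, unlike Krt8 in 168FARN. Among 6 immune markers the pan-leukocyte gene Ptprc had at most 3 counts in any library, while Cd68, which other cells also express, made up most of their sum. That sum spanned 25.8 to 27.5, 17.3 to 20.7 and 17.8 to 19.1 CPM in 168FARN and 15.8 to 17.1, 36.2 to 37.9 and 36.3 to 63.8 CPM in LLC1, in cells alone, WT and sgPrrx1 coculture. In 168FARN Cd68 had means of 23.9, 14.8 and 14.0 CPM while the macrophage receptor gene Csf1r had 0.348, 1.24 and 1.39 CPM, and in LLC1 Cd68 had 16.2, 36.6 and 46.0 CPM. The sum of 4 endothelial markers spanned 0.535 to 0.658, 5.71 to 6.74 and 4.08 to 4.64 CPM in 168FARN, most of it from Cdh5 in the cocultures (means of 0.277, 5.94 and 3.90 CPM). In LLC1 it spanned 0.025 to 0.103, 5.57 to 6.67 and 0.103 to 0.352 CPM, with Kdr at means of 0.0123, 6.04 and 0.115 CPM. These markers thus moved with the cocultures too, and their part in the results was not tested. The cancer cells themselves expressed Prrx1, at 88.2, 129 and 112 CPM in 168FARN and 206, 218 and 177 CPM in LLC1. Fewer cells of a type and less RNA per cell cannot be told apart in such bulk libraries.

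**Figure D1:**
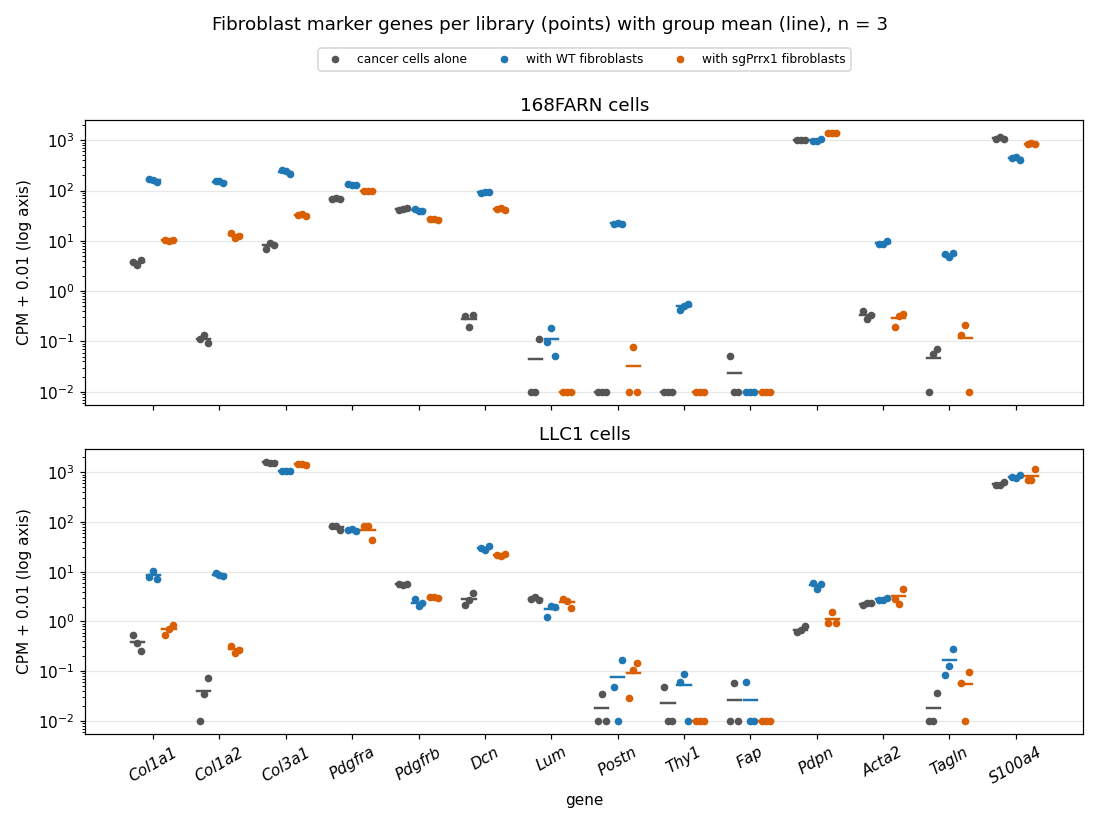
CPM plus 0.01 on a log axis for 14 fibroblast marker genes in each library of 168FARN (top) and LLC1 (bottom), coloured by group, with the group mean as a line (n = 3). In 168FARN, Col1a1, Col1a2, Col3a1 and Postn were far higher in WT coculture than in cells alone, while Pdpn and S100a4 were already high in cells alone.

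Levels of different members were compared as CPM per kilobase of gene length. In 168FARN cells alone Socs3 was highest at 47.6 ± 0.931 (SD, n = 3), followed by Il6st at 28.6 ± 0.0437, Lif at 21.6 ± 0.406 and Jak1 at 20.8 ± 0.266, and Il6 was lowest at 0.135 ± 0.0513. No neighbours in that order overlapped. In WT coculture Socs3 stood at 115 ± 1.53 CPM per kilobase, with Lif next at 38.1 ± 0.207, and Il6, at 2.18 ± 0.0244, lay just above Lifr at 2.06 ± 0.0301. In sgPrrx1 coculture Socs3 (66.3 ± 0.409), Lif (46.3 ± 0.665) and Il11 (30.7 ± 1.38) led, and the only neighbours that overlapped were Jak1 and Il6st. In LLC1 cells alone the order was led by Socs3 at 46.9 ± 1.54 and Jak1 at 38.5 ± 3.39 CPM per kilobase. With WT fibroblasts Jak1 led in LLC1, at 33.2 ± 1.43, and Socs3 followed at 23.6 ± 0.467. With sgPrrx1 fibroblasts Jak1 (32.0 ± 8.35) and Socs3 (29.9 ± 7.83) overlapped, Socs3 being the higher in replicate 3, and without that library they stood at 36.8 and 25.4 and did not overlap. Lif and Il11 overlapped in both LLC1 cocultures, in the sgPrrx1 group only through replicate 3. Il11ra1 was lowest in every LLC1 group, at 0.126 to 0.141, from 37 to 61 counts per library. It has a near-identical copy, Il11ra2, to which at most 5 counts were assigned in any library. How reads that fit both copies were counted is not given, so the values of Il11ra1 are uncertain.

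**Figure D2:**
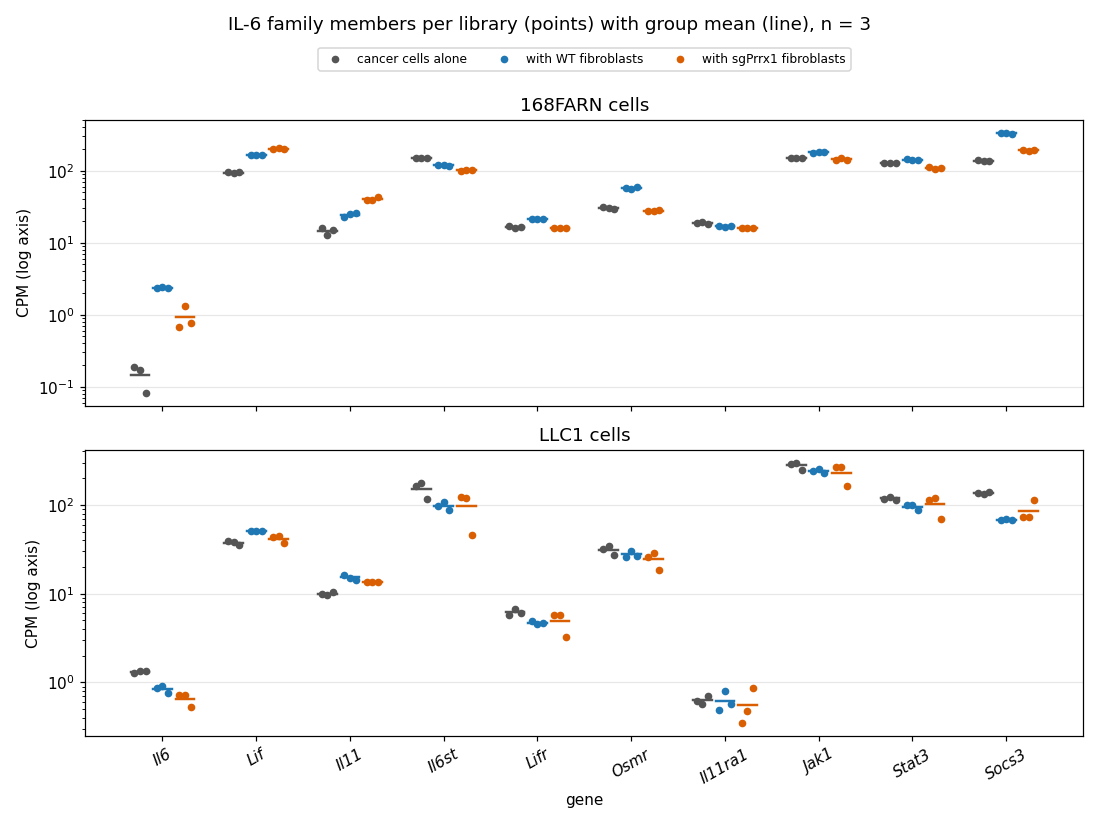
CPM on a log axis for the 10 members in each library of 168FARN (top) and LLC1 (bottom), coloured by group, with the group mean as a line (n = 3). Socs3 was highest with WT fibroblasts in 168FARN and lowest with them in LLC1, and LLC1 sgPrrx1 replicate 3 is the low point of Il6st, Jak1 and Stat3.

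In 168FARN all 10 members passed the test between WT coculture and cells alone, by edgeR's quasi-likelihood test with Benjamini-Hochberg adjustment over 13540 genes at 0.05. Of these, 8 rose (Il6, Lif, Il11, Lifr, Osmr, Jak1, Stat3 and Socs3) and 2 fell (Il6st and Il11ra1), against 33.4% of all genes tested that rose and 30.7% that fell. The median change of the members was 0.57 on the log2 scale, against 0.01 over all genes. With sgPrrx1 fibroblasts 4 members rose against cells alone (Il6, Lif, Il11 and Socs3) and 4 fell (Il6st, Osmr, Il11ra1 and Stat3), against 25.7% and 24.1% of all genes. From WT to sgPrrx1 coculture 2 members rose (Lif and Il11) and 7 fell (all others but Il11ra1), against 26.9% and 33.1% of all genes. Large shares of all genes changed in these comparisons, so the counts are read against those shares and the sizes of the changes carry the description. Comparisons of the same line share libraries, so values are set side by side and opposite signs in the first and the last are partly built in.

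Il6, the founding cytokine of the family (chr5:30013114-30019975), was nearly absent from 168FARN cells alone, with 9, 11 and 4 counts. In WT coculture it had 165, 164 and 116 counts, and in sgPrrx1 coculture 32, 79 and 46. In CPM these were 0.185, 0.171 and 0.0824, then 2.34, 2.39 and 2.35, then 0.667, 1.32 and 0.779, and no groups overlapped. Il6 rose 15.7-fold in WT coculture (log2 fold change 3.98 ± 0.33 SE, edgeR adjusted p = 1.274e-06) and 6.20-fold in sgPrrx1 coculture (2.63 ± 0.36, edgeR adjusted p = 0.0001233). Between the cocultures it was 2.54-fold lower with sgPrrx1 fibroblasts (edgeR adjusted p = 0.0007446). Even in WT coculture Il6 stayed a low RNA, and its order of groups was that of 7 of the 12 fibroblast markers tested, Col1a1 among them, and of the endothelial marker Cdh5, and the part of these markers in the result was not tested.

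Lif encodes leukaemia inhibitory factor (chr11:4257568-4272514), a cytokine that signals through LIFR and gp130. It had 95, 92 and 95 CPM in 168FARN cells alone, 166, 167 and 165 in WT coculture, and 200, 204 and 199 in sgPrrx1 coculture. The groups did not overlap, and the highest values came with sgPrrx1 fibroblasts. Lif rose 1.76-fold with WT fibroblasts (log2 fold change 0.82 ± 0.03, edgeR adjusted p = 1.219e-09) and 2.14-fold with sgPrrx1 fibroblasts (1.10 ± 0.03, edgeR adjusted p = 2.347e-10). It was 1.21-fold higher with sgPrrx1 than with WT fibroblasts (edgeR adjusted p = 6.407e-06).

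Il11 encodes interleukin-11 (chr7:4772373-4782907), a cytokine known for its link to fibrosis. It had 15.9, 12.6 and 15.1 CPM in 168FARN cells alone, 23.0, 25.4 and 25.5 in WT coculture, and 39.6, 39.2 and 42.5 in sgPrrx1 coculture. The groups again stepped up without overlap. Il11 rose 1.7-fold and 2.80-fold against cells alone (log2 fold changes 0.77 ± 0.08 and 1.48 ± 0.08, edgeR adjusted p = 6.2e-06 and 5.612e-08), and was 1.64-fold higher with sgPrrx1 than with WT fibroblasts (edgeR adjusted p = 8.742e-06). Between the cocultures Lif and Il11 thus rose where 10 of the 12 fibroblast markers tested fell and where Pdpn and S100a4 rose, and the part of these markers was not tested.

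Among the 4 member receptor genes, Osmr (chr15:6813568-6874968) changed most in 168FARN between WT coculture and either other group. Its product pairs with gp130 to form the oncostatin M receptor. Osmr had 30.8, 30 and 29.6 CPM in 168FARN cells alone, 56.7, 55.2 and 58.5 in WT coculture, and 27.9, 27.3 and 28.2 in sgPrrx1 coculture. WT coculture stood clear of both other groups, which lay close together. Osmr rose 1.88-fold with WT fibroblasts (log2 fold change 0.91 ± 0.03, edgeR adjusted p = 1.573e-09) and was 2.04-fold lower with sgPrrx1 than with WT fibroblasts (edgeR adjusted p = 1.673e-09). Its fall of 1.08-fold from cells alone to sgPrrx1 coculture (edgeR adjusted p = 0.01229) no longer passed without sgPrrx1 replicate 2 (edgeR adjusted p = 0.05889).

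Lifr (chr15:7090610-7197489), the LIF receptor chain, had 16.9, 16.2 and 16.4 CPM in 168FARN cells alone, 21.1, 21.7 and 21.1 in WT coculture, and 16.0, 16.2 and 16.0 in sgPrrx1 coculture. Cells alone and sgPrrx1 coculture overlapped, and WT coculture lay above both. Lifr rose 1.29-fold with WT fibroblasts (edgeR adjusted p = 7.575e-06) and was 1.32-fold lower with sgPrrx1 than with WT fibroblasts (edgeR adjusted p = 4.551e-06). Against cells alone the sgPrrx1 change was -0.04 on the log2 scale, with a 95% interval from -0.12 to 0.05.

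Il6st (chr13:112464070-112506860), the shared gp130 chain, went the other way. It had 149, 149 and 149 CPM in 168FARN cells alone, 121, 119 and 118 in WT coculture, and 99.0, 103 and 101 in sgPrrx1 coculture. It stepped down without overlap, being 1.25-fold lower with WT and 1.47-fold lower with sgPrrx1 fibroblasts (edgeR adjusted p = 1.939e-06 and 4.414e-08), and 1.18-fold lower with sgPrrx1 than with WT fibroblasts (edgeR adjusted p = 2.41e-05). Il11ra1 (chr4:41760443-41769473), the binding chain for IL-11, had 18.3 to 19.4 CPM in cells alone, 16.7 to 17.1 in WT coculture and 15.8 to 16.2 in sgPrrx1 coculture. It was 1.12-fold and 1.18-fold lower than in cells alone (edgeR adjusted p = 0.00476 and 0.0005462), and the cocultures differed by -0.08 on the log2 scale (95% interval -0.17 to 0.01), or by -0.13 with library totals alone, a value that passed (edgeR adjusted p = 0.01404).

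The kinase and the transcription factor moved little. Jak1 (chr4:101151974-101265282) had 148, 151 and 152 CPM in 168FARN cells alone, 178, 184 and 184 in WT coculture, and 143, 148 and 140 in sgPrrx1 coculture. It was 1.21-fold higher with WT fibroblasts (edgeR adjusted p = 1.406e-05) and 1.27-fold lower with sgPrrx1 than with WT fibroblasts (edgeR adjusted p = 3.283e-06). Stat3 (chr11:100886806-100939594) had 128, 129 and 126 CPM in cells alone, 146, 143 and 140 in WT coculture, and 111, 107 and 110 in sgPrrx1 coculture, with no overlap. It rose 1.12-fold with WT fibroblasts (edgeR adjusted p = 0.000629), was 1.17-fold lower than in cells alone with sgPrrx1 fibroblasts (edgeR adjusted p = 0.0001011) and 1.3-fold lower with sgPrrx1 than with WT fibroblasts (edgeR adjusted p = 1.065e-06). These are RNA levels, and STAT3 protein and its phosphorylation were not measured here.

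Socs3 (chr11:117966079-117970336), the feedback inhibitor, had the largest change on the log2 scale of any member but Il6 in WT coculture of 168FARN. It had 141, 137 and 136 CPM in cells alone, 337, 334 and 328 in WT coculture, and 192, 190 and 193 in sgPrrx1 coculture. The sgPrrx1 libraries lay between the other groups, with no overlap. Socs3 rose 2.42-fold with WT fibroblasts (log2 fold change 1.27 ± 0.03, edgeR adjusted p = 2.379e-11) and 1.39-fold with sgPrrx1 fibroblasts (0.48 ± 0.03, edgeR adjusted p = 8.247e-08), and was 1.74-fold lower with sgPrrx1 than with WT fibroblasts (edgeR adjusted p = 2.285e-09). Its order of group means, WT above sgPrrx1 coculture above cells alone, was also that of Il6 and of 7 of the 12 fibroblast markers tested (Col1a1, Col1a2, Col3a1, Pdgfra, Dcn, Postn and Tagln). The endothelial marker Cdh5 had this order too. S100a4 had the reverse order and Pdgfrb, Pdpn and Acta2 another order, while Thy1 was at 0 in every library of cells alone and of sgPrrx1 coculture, and the part of these markers in the result was not tested.

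**Figure D3:**
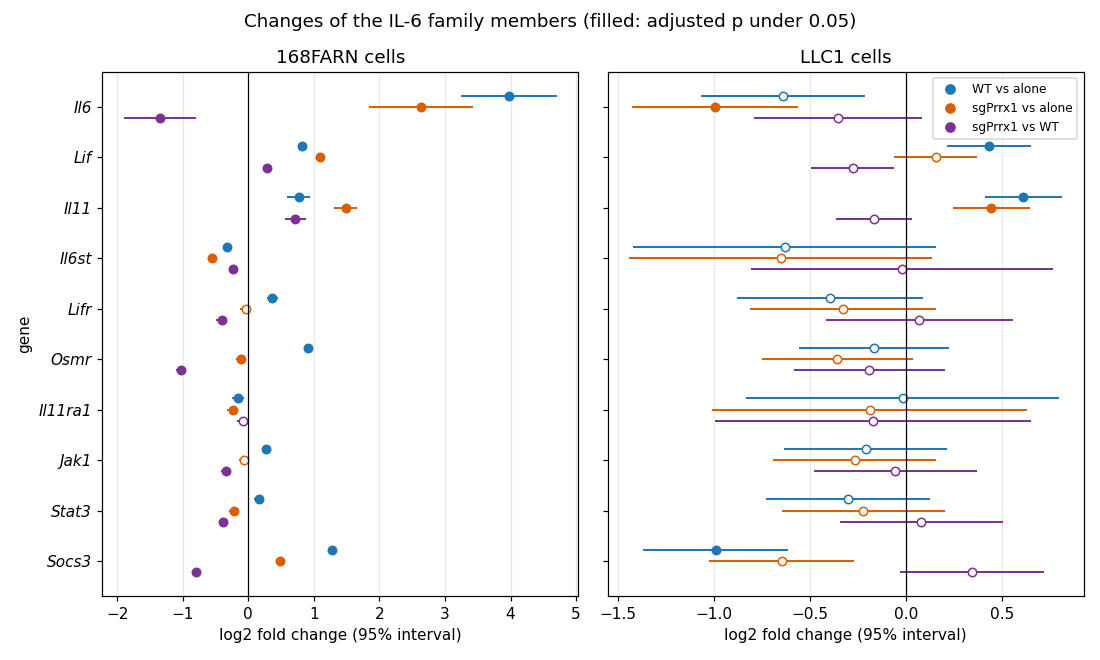
Log2 fold change with its 95% interval for the 10 members in 168FARN (left) and LLC1 (right), in 3 comparisons, with filled points for an adjusted p under 0.05 and different x axes in the panels. Socs3 lies at 1.27 in 168FARN and at -0.99 in LLC1 for WT coculture against cells alone. The intervals of most members are wider in LLC1, but in that comparison the interval of Il6 is wider in 168FARN.

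The LLC1 libraries had a biological coefficient of variation of 0.228, or 0.112 without sgPrrx1 replicate 3, against 0.0728 in 168FARN. Between WT coculture and cells alone 3 of 10 members passed, with Lif and Il11 higher and Socs3 lower, against 4.25% of 12873 genes that rose and 4.58% that fell. The median change of the members was -0.26 on the log2 scale, against -0.02 over all genes. With sgPrrx1 fibroblasts Il11 rose and Il6 fell against cells alone, against 2.01% of genes that rose and 2.31% that fell. In this comparison libraries with the same replicate number deviated together (r = 0.2083, 0.442 and 0.6336), and with that number as a block 0 members passed, against 1.44% of genes that rose and 1.52% that fell. These r values are not independent, since the deviations within a group sum to 0. They include sgPrrx1 replicate 3, which stood apart, and were not recomputed without it. Between the cocultures 0 members passed edgeR's test, against 0% of all genes that rose and 0.0544% that fell. At an unadjusted p under 0.05 there was 1 member, against 1545 of all 12873 genes. DESeq2 called 0 members and 501 genes, and limma voom with sample quality weights, which gives less weight to a library that stands apart, called 7 members and 4681 genes. Without sgPrrx1 replicate 3 the WT comparison called 8 members, 2 higher and 6 lower, against 22% and 22.2% of all genes. In that fit the sgPrrx1 comparison with cells alone called 2 higher (Lif and Il11) and 2 lower (Il6 and Socs3), against 12.5% and 14.2% of all genes, and the comparison of the cocultures still called 0, against 2.94% and 2.75% of all genes. When any 1 of the other 8 LLC1 libraries was left out instead, 1 to 3 members passed between WT coculture and cells alone, and 0 between sgPrrx1 coculture and cells alone.

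Socs3 had 135, 131 and 140 CPM in LLC1 cells alone, 67.5, 69.7 and 67.2 in WT coculture, and 74.0, 72.7 and 113 in sgPrrx1 coculture. Every coculture library lay below every library of cells alone. It fell 1.99-fold with WT fibroblasts (log2 fold change -0.99 ± 0.17, edgeR adjusted p = 0.01143), with adjusted p between 0.05011 and 0.06037 without alone replicate 1 or 2 or WT replicate 1 or 3, and 7.841e-06 without sgPrrx1 replicate 3. Against cells alone the sgPrrx1 change was -0.65 ± 0.16 (edgeR adjusted p = 0.06571) and became -0.88 ± 0.05 (edgeR adjusted p = 5.288e-05) without sgPrrx1 replicate 3, the library at 113 CPM. Between the cocultures Socs3 differed by 0.34 on the log2 scale, with a 95% interval from -0.03 to 0.72, and by 0.10 (interval -0.02 to 0.22) without sgPrrx1 replicate 3.

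The cytokine genes Lif and Il11 rose in LLC1 with WT fibroblasts too. Lif had 38.8, 38.2 and 35.6 CPM in cells alone, 51.1, 50.6 and 50.2 in WT coculture, and 43.6, 44.4 and 37.2 in sgPrrx1 coculture. WT coculture lay above both other groups, while sgPrrx1 coculture overlapped cells alone through replicate 3. The sgPrrx1 change of Lif against cells alone was 0.15 on the log2 scale (edgeR adjusted p = 0.3585), or 0.24 without sgPrrx1 replicate 3 (edgeR adjusted p = 0.01063). Lif rose 1.35-fold with WT fibroblasts (edgeR adjusted p = 0.02948), a call that was lost without any 1 of the 6 libraries compared (edgeR adjusted p 0.09353 to 0.1159). Il11 had 9.97, 9.59 and 10.4 CPM in cells alone, 16.2, 15.2 and 14.4 in WT coculture, and 13.7, 13.7 and 13.4 in sgPrrx1 coculture, with no overlap. It rose 1.53-fold with WT fibroblasts (edgeR adjusted p = 0.006747) and 1.36-fold with sgPrrx1 fibroblasts (edgeR adjusted p = 0.03338, or 0.05644 with the replicate block and 0.003439 without sgPrrx1 replicate 3).

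Il6 had its highest values in LLC1 cells alone. It had 103, 109 and 104 counts in cells alone, 70, 68 and 57 in WT coculture, and 77, 61 and 31 in sgPrrx1 coculture, or 1.29 to 1.34, 0.767 to 0.9 and 0.531 to 0.726 CPM. The 3 groups did not overlap. Il6 was 1.99-fold lower with sgPrrx1 fibroblasts than in cells alone (edgeR adjusted p = 0.02982, or 0.0533 with the replicate block), and its change with WT fibroblasts was -0.64 ± 0.19 (edgeR adjusted p = 0.07348, or 0.01592 without sgPrrx1 replicate 3). Of 10 fibroblast markers tested in LLC1, 3 (Col3a1, Pdgfrb and Lum) had group means in the order of Socs3, highest in cells alone and lowest in WT coculture, 4 (Col1a1, Col1a2, Dcn and Pdpn) had the reverse order and 3 another order. Without sgPrrx1 replicate 3, Acta2 and S100a4 had the reverse order too. The order of Il6, with sgPrrx1 coculture lowest, was that of Pdgfra only, and of 0 markers without sgPrrx1 replicate 3. The part of the markers in the values of Socs3 and Il6 was not tested.

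The receptor, kinase and factor genes of LLC1 had wide intervals. Il6st had 163, 176 and 115 CPM in cells alone, 97.0, 109 and 87.3 in WT coculture, and 123, 120 and 45.6 in sgPrrx1 coculture. Cells alone lay above WT coculture, and replicate 3 of the sgPrrx1 group lay below all other libraries. The WT change of Il6st was -0.63 on the log2 scale (95% interval -1.42 to 0.16), which passed at -0.62 without sgPrrx1 replicate 3 (edgeR adjusted p = 0.007949). Stat3 had 117, 123 and 114 CPM in cells alone, 98.9, 101 and 87.5 in WT coculture, and 113, 120 and 70.2 in sgPrrx1 coculture. Its WT change was -0.30 (95% interval -0.73 to 0.12), or -0.29 without sgPrrx1 replicate 3 (edgeR adjusted p = 0.006554). The WT changes of Lifr (-0.40, interval -0.88 to 0.09) and Jak1 (-0.21, interval -0.64 to 0.21) passed without that library, at -0.38 and -0.20 (edgeR adjusted p = 0.00648 and 0.03924), and those of Osmr (-0.17, interval -0.56 to 0.23) and Il11ra1 (-0.02, interval -0.84 to 0.80) did not pass with or without it.

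The change from cells alone to WT coculture was then compared between the lines as an interaction in a joint edgeR fit of 13845 genes, where 29.4% of all genes differed. It differed for 5 of 10 members, each with the higher change in 168FARN. Socs3 rose in 168FARN and fell in LLC1, a difference of 2.26 ± 0.16 on the log2 scale (edgeR adjusted p = 9.687e-08). Il6 differed by 4.61 ± 0.39 (edgeR adjusted p = 5.331e-07), Osmr by 1.07 ± 0.19 (edgeR adjusted p = 0.000482), Lifr by 0.75 ± 0.22 (edgeR adjusted p = 0.01918) and Lif by 0.38 ± 0.10 (edgeR adjusted p = 0.008697). Il11 rose in both lines and its difference of 0.14 ± 0.12 did not pass (edgeR adjusted p = 0.4205). Without LLC1 sgPrrx1 replicate 3 there were 7 members, Jak1 and Stat3 being added, against 52.7% of all genes. The change from WT to sgPrrx1 coculture differed for 4 members, against 19.5% of all genes: Il11 by 0.90 ± 0.12, Lif by 0.58 ± 0.10, Osmr by -0.82 ± 0.19 and Socs3 by -1.12 ± 0.16 (edgeR adjusted p = 0.0001106, 0.000776, 0.00586 and 0.0001887). Without LLC1 sgPrrx1 replicate 3 it was all 10 members, against 44.8% of all genes. The joint fit shared its estimate of the spread between the lines, although their biological coefficients of variation were 0.0728 in 168FARN and 0.228 in LLC1. Its SE and p-values may therefore understate the spread of LLC1.

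Other genes of the pathway were read from 6 lists, whose counts are to be read against the shares of all genes given above for each comparison. A list of 24 genes that STAT3 is known to regulate showed 15 genes that rose and 5 that fell in 168FARN WT coculture against cells alone, with a median change of 0.40 on the log2 scale against 0.01 over all genes. In sgPrrx1 coculture 11 rose and 6 fell against cells alone, and 3 rose and 13 fell against WT coculture, with a median of -0.18 against -0.03 over all genes. Myc, a growth regulator, had 128 CPM in cells alone, 280 in WT and 183 in sgPrrx1 coculture, and rose by 1.13 on the log2 scale with WT fibroblasts (edgeR adjusted p = 1.27e-05). The acute phase genes Saa3 (316, 120 and 108 CPM) and Lcn2 (1665, 666 and 761 CPM) fell by 1.40 and 1.32 on the log2 scale, against the direction of most of the list. Between the cocultures, among genes of the list with a mean of 100 counts or more, the changes of largest size past the threshold were falls of 0.96 for Il4ra, 0.88 for Vegfa and 0.81 for Bcl3, and against cells alone Timp1 rose by 0.58 with sgPrrx1 fibroblasts. Of the genes under that mean, Icam1 rose by 1.96 between the cocultures, and Fgl2 had 27, 40 and 23 counts in WT coculture and 0 in every library of sgPrrx1 coculture, both named after their values were seen. Fgl2, also at 0 in cells alone, was at least 8.43-fold higher in WT coculture against a floor of 3 counts per library, and the list median stayed at 0.40 with that bound in place of its fitted value.

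In LLC1, 21 genes of the same list could be tested. With WT fibroblasts 2 rose and 4 fell (median -0.06, against -0.02 over all genes), with sgPrrx1 fibroblasts 1 rose and 3 fell against cells alone, and between the cocultures 0 rose and 0 fell. Without sgPrrx1 replicate 3 these were 4 and 9, 4 and 9, and 3 and 1, and with the replicate block 1 rose and 2 fell in sgPrrx1 coculture against cells alone. Saa3 rose by 1.71 in LLC1 with WT fibroblasts, Lcn2 fell by 1.42 and Klf4, a transcription factor, fell by 1.17 on the log2 scale. Myc fell by 0.83 and Klf4 by 1.28 with sgPrrx1 fibroblasts, and Saa3 rose by 1.68. Between the lines the WT change differed for 14 of 24 genes, higher in 168FARN for 11 and lower for 3, with differences of 1.89 for Myc and -3.12 for Saa3 (edgeR adjusted p = 7.73e-07 and 2.05e-06).

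**Figure D4:**
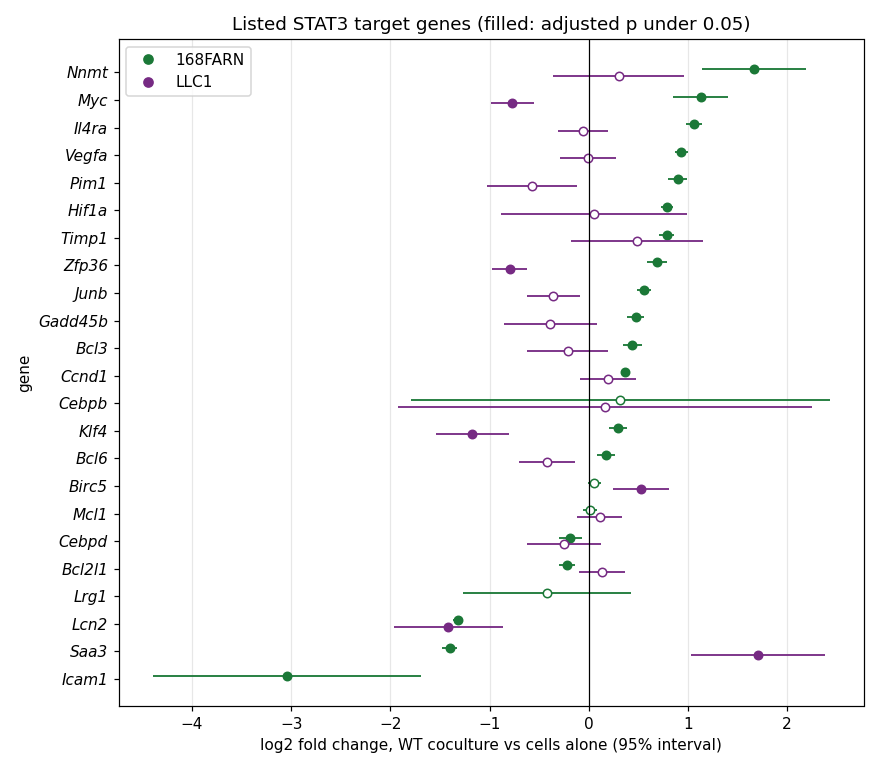
Log2 fold change with its 95% interval for listed STAT3 target genes between WT coculture and cells alone in 168FARN (green) and LLC1 (purple), with filled points for an adjusted p under 0.05. Fgl2, at 0 counts in 168FARN cells alone, is left out. Myc lies at 1.13 in 168FARN and -0.77 in LLC1, Saa3 at -1.40 and 1.71, and Lcn2 is lower in both lines.

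Of 15 other inhibitors of the pathway (SOCS, PIAS and phosphatase genes), 10 rose and 0 fell in 168FARN WT coculture, 6 rose and 2 fell in sgPrrx1 coculture against cells alone, and 1 rose and 7 fell between the cocultures. With WT fibroblasts the median change was 0.13 on the log2 scale, against 0.01 over all genes, of which 33.4% rose and 30.7% fell. Socs2, another SOCS gene, had 4.02, 11.1 and 5.91 CPM in cells alone, WT and sgPrrx1 coculture, and rose by 1.46 on the log2 scale with WT fibroblasts. Socs6 rose by 0.33 and Pias2 by 0.28 in the same comparison, and Socs1 rose by 0.31 from WT to sgPrrx1 coculture, where Socs2 fell by 0.91 and Pias1 by 0.24. In LLC1 only Pias3 passed, with a fall of 0.36 with WT fibroblasts, while without sgPrrx1 replicate 3 there were 6 with WT fibroblasts, 1 with sgPrrx1 fibroblasts against cells alone and 0 between the cocultures.

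Of 8 further JAK and STAT genes tested, 4 rose and 4 fell in 168FARN WT coculture, 3 rose and 3 fell in sgPrrx1 coculture against cells alone, and 2 rose and 4 fell between the cocultures. The median change was 0.08 on the log2 scale with WT fibroblasts, against 0.01 over all genes, of which 33.4% rose and 30.7% fell. The kinase genes Jak2 and Jak3 rose by 0.66 and 0.65 on the log2 scale with WT fibroblasts and fell by 0.53 and 0.54 from WT to sgPrrx1 coculture, while the kinase gene Tyk2 fell by 0.56 with WT and 0.52 with sgPrrx1 fibroblasts. The factor gene Stat5a fell by 0.62 and Stat2 rose by 0.54 with sgPrrx1 fibroblasts against cells alone. In LLC1, 2 fell and 0 rose with WT fibroblasts, among them Tyk2 by 0.88. With sgPrrx1 fibroblasts 2 fell and 1 rose against cells alone, with a fall of 0.53 for Tyk2 and a rise of 0.54 for the factor gene Stat6, which missed the threshold with the replicate block (edgeR adjusted p = 0.05317). Without sgPrrx1 replicate 3, 1 rose and 6 fell in each of these LLC1 comparisons, and 1 rose between the cocultures.

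Of 9 other ligand genes 5 were expressed enough to test in 168FARN, and of 5 other receptor genes 2. Osm, the ligand of the receptor that Osmr helps to form, had at most 3 counts in any 168FARN library and 0 in every LLC1 library. Clcf1, a cytokine that signals through gp130 and LIFR, rose by 0.36 with WT and 0.62 with sgPrrx1 fibroblasts in 168FARN and by 0.59 and 0.79 in LLC1. Il6ra, the IL-6 binding chain, had 27.8, 14.6 and 15.6 CPM in 168FARN and fell by 0.92 with WT and 0.83 with sgPrrx1 fibroblasts. In LLC1 it had 17.8, 15.1 and 15.4 CPM and did not pass, with sgPrrx1 replicate 3 at 3.32 CPM and the other 2 sgPrrx1 libraries at 21.2 and 21.7. Of the 5 ligand genes tested in 168FARN, 2 rose and 1 fell with WT fibroblasts, 2 rose and 0 fell with sgPrrx1 fibroblasts against cells alone, and 2 rose and 1 fell between the cocultures. Of 4 ligand and 3 receptor genes tested in LLC1, Clcf1 passed in both comparisons with cells alone and no other did. Without sgPrrx1 replicate 3, 1 ligand rose and 1 fell in each comparison with cells alone, while 1 receptor fell with WT fibroblasts and 1 rose in each comparison of sgPrrx1 coculture.

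The last list held 14 genes of IL-1, TNF and NF-kB signalling, which can switch on Il6. In 168FARN 4 rose and 1 fell with WT fibroblasts, 4 rose and 3 fell with sgPrrx1 fibroblasts against cells alone, and 3 rose and 6 fell between the cocultures. With WT fibroblasts the median change of the list was 0.03 on the log2 scale, against 0.01 over all genes, and the shares of its genes that rose and fell were below the 33.4% and 30.7% of all genes. Il1r1, the IL-1 receptor gene, had 21.4, 35.7 and 26.5 CPM, rising by 0.73 with WT fibroblasts and falling by 0.43 from WT to sgPrrx1 coculture. The NF-kB inhibitor gene Tnfaip3 rose by 0.38 and the NF-kB subunit gene Rela by 0.37 with WT fibroblasts. From WT to sgPrrx1 coculture Tnfaip3 fell by 0.46 and the adaptor gene Myd88 rose by 0.44. In LLC1 11 of the list could be tested and only the NF-kB subunit gene Nfkb1 passed, with a fall of 0.40 with WT fibroblasts, against 8 genes without sgPrrx1 replicate 3, where 5 also passed with sgPrrx1 fibroblasts against cells alone and 2 between the cocultures.

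The genes most like a member were taken as those with the highest Pearson correlation of log2 CPM with it over the 9 libraries of a line. In 168FARN these were Bgn, Sirpa and Palld for Socs3 (r = 0.9989, 0.9984 and 0.998), Dlk1, Serpine2 and Chac1 for Lif (r = 0.9985, 0.9973 and 0.997) and Zbtb38, Nudc and Nes for Il6 (r = 0.9933, 0.993 and 0.9919). Such values are common in this table, since the 9 libraries form 3 tight groups: 1319 of 10867 genes had r above 0.9 with Socs3, 458 with Lif and 1108 with Il6. In LLC1 the genes were Prpf40b, Csad and Kcnh3 for Socs3 (r = 0.9962, 0.995 and 0.9925), Wdr45b, Mmd and Thbs1 for Lif (r = 0.9838, 0.981 and 0.9806) and Fosb, Zfp112 and Tsc22d3 for Il6 (r = 0.989, 0.9862 and 0.9861), with 337, 138 and 253 of 10995 genes above 0.9. Over the 8 libraries without sgPrrx1 replicate 3 these were 1147, 519 and 602 genes, and the most alike were Slc1a4 for Socs3, Vps35 for Lif and Hacl1 for Il6 (r = 0.9981, 0.9969 and 0.9887).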

How the data were processed

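RNA of sorted GFP-tagged cancer cells was sequenced as paired reads from libraries made with a TruSeq kit that does not mark strand. The authors deposited the counts of reads per gene as 1 table a line, made, per the labels, with Trimmomatic, STAR and HTSeq on mouse build mm10; the study names versions of these tools, and a batch correction of counts, for its other RNA-seq of fibroblasts, while those for these libraries, the annotation and the setting for strand and read pairs are not given in the sources used here. In each of them, 27 gene symbols had been turned into dates and were kept as they stand, and no member is among them. Groups came from the sample titles. The labels do not say whether libraries of a group came from separate cultures, so p-values measure the spread between these libraries, which may be technical. Counts were filtered with filterByExpr, scaled by TMM and tested with edgeR's quasi-likelihood test (edgeR 4.0.16, limma 3.58.1, R 4.3.3), two-sided, on the 9 libraries of a line, with Benjamini-Hochberg adjustment over all genes tested (13540 for 168FARN, 12873 for LLC1) at 0.05 and 95% intervals. The difference between lines was an interaction in a joint fit of the 18 libraries, with the spread estimated over both lines together. The script was tested on simulated data, with an equal spread in both lines and no library that stood apart. That test does not cover the conditions of LLC1. CPM used TMM-scaled totals, and levels per kilobase used exon lengths from an older Ensembl annotation of another build, for lengths only. Coordinates and promoter sequence are from RefSeq on GRCm38.p6. Likeness was the correlation of log2(CPM + 0.5) over genes with a mean of at least 100 counts. Floors and counts of 0 cover counting error only.

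The members and the lists were chosen with earlier results of these data known. All members were named, together with, from each other list, the 3 genes of largest change past the threshold whose mean count was 100 or more; some genes that this rule names are not reported here. Replicates of a group differed beyond counting error (chi-square per degree of freedom at least 10.61). Libraries that share a replicate number across groups deviated together with a mean r of 0.04 in 168FARN (-0.06 to 0.18) and 0.25 in LLC1 (-0.15 to 0.63), and every same-numbered pair was over 0.1 only between LLC1 sgPrrx1 coculture and cells alone, where values with the replicate block are given beside the calls they change; the labels do not say what the numbers share. Alternatives were DESeq2 1.42.0, RLE scaling, library totals, no filter, the replicate number as a block, only the 2 groups compared, limma voom with sample weights and each library left out. The list and marker counts, orders and likeness without LLC1 sgPrrx1 replicate 3, and the list counts with the block, were added after seeing the data.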

Additional observations from a re-analysis of the deposited data

Results flagged for a closer look

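A term for the difference between lines was tested for every member, and 9 of these differences passed in the fit whose spread was shared by both lines. For WT coculture against cells alone, the change in 168FARN exceeded that in LLC1 by 4.61 on the log2 scale for Il6, 2.26 for Socs3, 1.07 for Osmr, 0.75 for Lifr and 0.38 for Lif. Every 168FARN coculture library lay above and every LLC1 coculture library below the cells alone of its line for Il6 and Socs3. The LLC1 change of Il6 with WT fibroblasts did not itself pass (edgeR adjusted p = 0.07348), and its call with sgPrrx1 fibroblasts was lost without any 1 of the 8 LLC1 libraries other than sgPrrx1 replicate 3 (edgeR adjusted p 0.0568 to 0.1367) and with the replicate block (edgeR adjusted p = 0.0533). For sgPrrx1 against WT coculture, the change in 168FARN was higher by 0.90 for Il11 and 0.58 for Lif, and the difference was -0.82 for Osmr and -1.12 for Socs3. The 168FARN change of Lif was 0.28 and that of LLC1 -0.28 in this comparison, where the LLC1 change alone did not pass. Line and kind of fibroblast cannot be told apart in any of these.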

How the results depend on the processing

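Of 1380 values recomputed under alternatives for the 80 results of single members, 1279 kept their direction and their side of the threshold, 35 lost the call, 45 gained it and 21 changed sign. In 168FARN the members called numbered 10, 8 and 9 in the 3 comparisons. Osmr in sgPrrx1 coculture against cells alone lost its call with DESeq2 (adjusted p = 0.07129), and without sgPrrx1 replicate 2. Jak1 gained it there with library totals, without sgPrrx1 replicate 2 and with limma voom (edgeR adjusted p = 0.02572 and 0.044, and limma adjusted p = 0.03828), and Il11ra1 between the cocultures with library totals (-0.13, edgeR adjusted p = 0.01404).

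In LLC1 the counts depended on the processing, and the cause was not tested. For WT coculture against cells alone, 3 members were called, against 9 with limma voom and 7 with only the 2 groups, and 1 to 8 when 1 library was left out. For sgPrrx1 coculture against cells alone, 2 were called, against 1 with no filter, 0 with only the 2 groups, 6 with limma voom, and 0 to 4 when 1 library was left out. Between the cocultures 0 were called, against 7 with limma voom and 0 without any 1 library. The difference between lines called 5 to 7 members for WT coculture and 4 to 10 for the cocultures when 1 library was left out, the 10 being without LLC1 sgPrrx1 replicate 3.

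With the replicate number as a block, 10, 8 and 9 members were called in 168FARN and 3, 0 and 0 in LLC1, where Il6 and Il11 of sgPrrx1 coculture against cells alone missed the threshold (edgeR adjusted p = 0.0533 and 0.05644). The difference between lines called 6 members for WT coculture with the block, Jak1 being added (edgeR adjusted p = 0.04195), and 4 for the cocultures. The block changed no other call of a member. Only in LLC1 sgPrrx1 coculture against cells alone did all 3 same-numbered pairs deviate together, so elsewhere the block is no measure of a weaker effect.

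Over all genes, LLC1 gave 1137, 556 and 7 calls in the comparisons of WT with alone, sgPrrx1 with alone and sgPrrx1 with WT. They became 2276, 1944 and 501 with DESeq2, 7549, 6183 and 4681 with limma voom, and 5779, 3495 and 745 without sgPrrx1 replicate 3. With only the 2 groups they were 5167, 27 and 11, and without any 1 of the other 8 libraries 273 to 914, 52 to 210 and 3 to 8. The block gave 2 calls in the last comparison. The differences between lines gave 4073 and 2696 calls, or 7429 and 6318 without LLC1 sgPrrx1 replicate 3.

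Changes of sign came from values that had not passed the test, on the log2 scale, but 2 of the opposite values did pass. In LLC1 WT coculture against cells alone, Il11ra1 was 0.00144 with DESeq2 and 0.00157 with RLE scaling, and -0.23 to 0.13 when 1 library was left out. In sgPrrx1 coculture against cells alone it was -0.60 to 0.070 when 1 library was left out. Between the LLC1 cocultures, limma voom called Il6st at 0.31 and Jak1 at 0.14 (limma adjusted p = 0.02895 and 0.03771), against -0.02 and -0.06 with edgeR. With 1 library left out, the ranges there were -0.23 to 0.31 for Il6st, -0.068 to 0.29 for Lifr, -0.60 to 0.089 for Il11ra1, -0.17 to 0.14 for Jak1 and -0.063 to 0.28 for Stat3, with the end above 0 for Il6st, Lifr, Jak1 and Stat3 and the end below 0 for Il11ra1 coming without sgPrrx1 replicate 3. In the difference between lines they were -0.31 to 0.077 for Il11ra1 with WT fibroblasts, and -0.52 to 0.011 for Il6st and -0.13 to 0.55 for Il11ra1 between the cocultures. Depth limited Il6 in 168FARN cells alone (4 to 11 counts) and Il11ra1 in LLC1 (37 to 61 counts).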
